A study of Rattus norvegicus with 4 samples.

Results

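The let-7 microRNA (miRNA) family was followed in primary chondrocytes (cartilage cells) of the rat during treatment with interleukin-1β (IL-1β), an inflammatory cytokine. Its 8 members here, chosen by probe name out of 679 rat miRNA probes, were the guide strands rno-let-7a, rno-let-7b, rno-let-7c, rno-let-7d, rno-let-7e, rno-let-7f, rno-let-7i and rno-miR-98, written below without the species prefix. let-7g was not analysed here. Cells cultured at 200000 per ml were left untreated (0 h, the control) or received 10 ng/ml IL-1β for 6, 12 or 24 h. A single sample of total RNA on 1 array, with 5 spots per probe, stood for each of the 4 groups. The 5 spots repeat a probe on 1 array and are not biological replicates, so every ± below covers error between spots only and no test between conditions was possible. The untreated sample is that of 0 h only, so an effect of IL-1β and one of time in culture cannot be told apart. Fewer cells with a miRNA and less of it per cell cannot be told apart either.

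let-7 miRNAs are known as abundant small RNAs of differentiated animal cells that hold down growth-promoting genes such as Hmga2, Ras genes and Myc. They pair with target transcripts mainly through the seed, bases 2 to 8 of the mature strand, and the RNA-binding proteins Lin28a and Lin28b block the processing of their precursors. In mouse growth plate cartilage the family is known to sustain chondrocyte proliferation, and in human cells let-7 is known to repress the IL-6 transcript.

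The mature sequences are shown because the members differ by so few bases that 1 probe may bind the RNA of another. All 8 targets, as the array files give them, matched a rat mature miRNA of RefSeq (build GRCr8). They are written 5′ to 3′ with the seed in capitals.
let-7a: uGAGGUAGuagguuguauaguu
let-7b: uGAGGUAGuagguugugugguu
let-7c: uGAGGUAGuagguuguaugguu
let-7d: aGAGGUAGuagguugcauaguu
let-7e: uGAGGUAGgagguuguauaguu
let-7f: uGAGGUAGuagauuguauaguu
let-7i: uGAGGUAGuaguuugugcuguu
miR-98: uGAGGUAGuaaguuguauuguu
The 8 members shared 1 seed, and these 8 were the only probes of the 679 whose target carried it at bases 2 to 8. With positions counted from 1 at the 5′ end and let-7a as the reference, let-7e differed by U9G, let-7f by G12A and let-7c by A19G. let-7b carried A17G and A19G, let-7d U1A and U16C, and miR-98 G11A and A19U. let-7i was the farthest from let-7a, with G12U, A17G, U18C and A19U. The GC content of the members lay between 31.8% (let-7f and miR-98) and 45.5% (let-7b).

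In that build the family came from 11 places. let-7a (chr17:16320145-16320166), let-7f (chr17:16320508-16320529) and let-7d (chr17:16322273-16322294) lay together on the + strand, within the span of the long non-coding RNA gene LOC120097935. A further let-7f locus (chrX:24460052-24460073) and miR-98 (chrX:24460663-24460684) lay on the + strand within the span of Huwe1, a ubiquitin ligase gene known to host them in an intron. let-7c (chr7:118683636-118683657) and let-7b (chr7:118684044-118684065) were neighbours on the + strand outside any other annotated gene. let-7e (chr1:67350243-67350264, + strand) lay within the span of Spaca6. The other let-7a locus (chr8:50805219-50805240, + strand) lay within the spans of Mir100hgl and Lnc215, and the other let-7c locus (chr11:29688127-29688148, + strand) within that of LOC103693508. let-7i (chr7:60527935-60527956, − strand) lay within the span of LOC134479799. A probe reads the mature strand and cannot tell the loci of let-7a, let-7c or let-7f apart. The strand and exons of the surrounding genes were not compared.

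**Figure D1:**
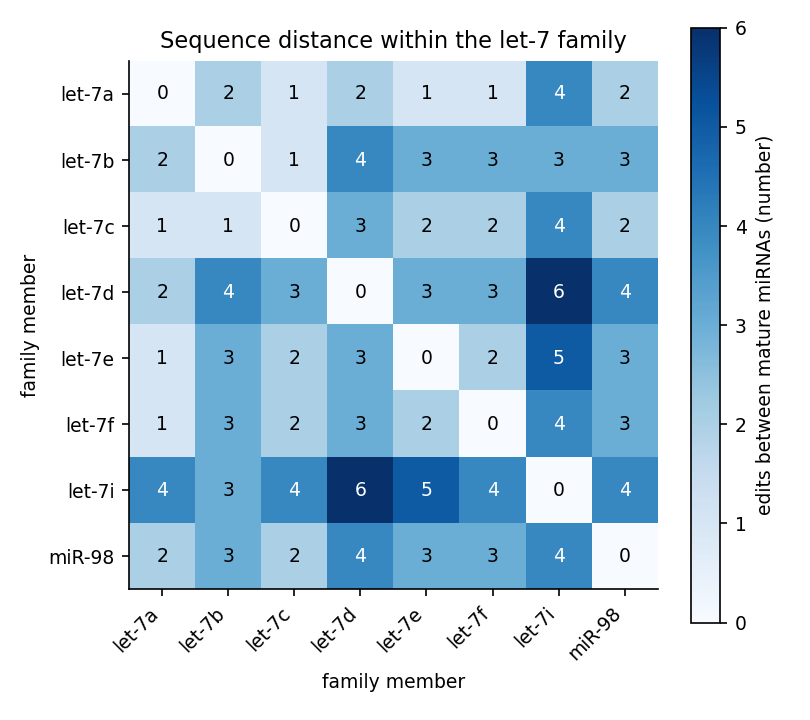
Number of edits (substitutions, insertions or deletions) between the mature sequences of each pair of the 8 members, one member per row and per column, with darker blue for more edits. let-7c, let-7e and let-7f are 1 edit from let-7a, miR-98 is 2 edits away, and let-7i is at least 3 edits from every other member.

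The detection limit of an array was the 95th percentile of its 261 empty spots, and detection of a miRNA needed 3 or more of 5 spots over it. It was 151.3 intensity units in the control and 54.2, 96.4 and 86.2 units at 6, 12 and 24 h, and 187, 355, 240 and 210 miRNAs were detected in that order. The cartilage-enriched miR-140, miR-140* and miR-455* were detected on all 4 arrays, and miR-455 at 6, 12 and 24 h. In the authors' values these 4 summed to 15197, 10431, 9091 and 12536 units. The brightest probe alone gave 12045, 8684, 7674 and 10251 of these units. The sum was lowest at 12 h, where let-7e and miR-98 were highest, but the 4 did not move together. After normalization, miR-140 and miR-455 were higher at 12 h than in the control, and miR-140* and miR-455* were lower. None of the 5 blood, 6 epithelial and 1 liver markers was detected on any array. Of the 4 muscle markers miR-206 was detected on all 4 arrays, and miR-1 and miR-133a at 6 h, and the list summed to 1113, 1110, 515 and 969 units in the authors' values for the control, 6, 12 and 24 h. Of the 3 neural markers miR-128 was detected on all 4 arrays and miR-124 at 6 h (list sums between 303 and 455 units). The endothelial marker miR-126 stood at 58.3, 66.9, 121 and 180 units, undetected in the control. The part of these cell types in the results was not tested.

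All 8 members were detected on all 4 arrays, with all 5 spots above the limit. Levels are given as log2 of quantile-normalised intensity with the SD of the 5 spots. A change between 2 arrays is the difference of these levels with its standard error (SE) from the spots. A member rose or fell where that change was at least 1 (2-fold) and over 2 times its SE. At 6 h none of the 8 passed, against 3.66% of the 355 miRNAs compared (1.41% higher and 2.25% lower). At 12 h let-7e and miR-98 rose, against 9.64% of 249 miRNAs called (5.62% higher and 4.02% lower). At 24 h miR-98 fell, against 13.7% of 233 miRNAs called (8.15% higher and 5.58% lower). All 3 comparisons share the control array, and with so few members nothing particular to the family is read from these counts.

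The median change of the 8 members was 0.20 at 6 h, 0.22 at 12 h and -0.35 at 24 h, beside 0.03, 0.09 and 0.02 over all miRNAs compared. Every one of the 8 had a positive change at 6 h and 12 h, beside 188 of 355 and 141 of 249 miRNAs compared. The changes of let-7b, let-7c and let-7i at both times, and of let-7a at 12 h, were within their SE. At 24 h 7 of 8 were negative, with let-7i the exception, beside 109 of 233 miRNAs compared. These signs depended on the scaling. Without normalization between arrays 7 of the 8 were positive at 24 h, and only miR-98 was lower than in the control. After correction for GC content, 3 of 8 were positive at 6 h, 2 at 12 h and 0 at 24 h. With each array scaled to its median over the 163 miRNAs seen on all arrays, 4 of 8 were positive at 12 h. The plot of each spot by array shows that the members did not move as a block.

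**Figure D2:**
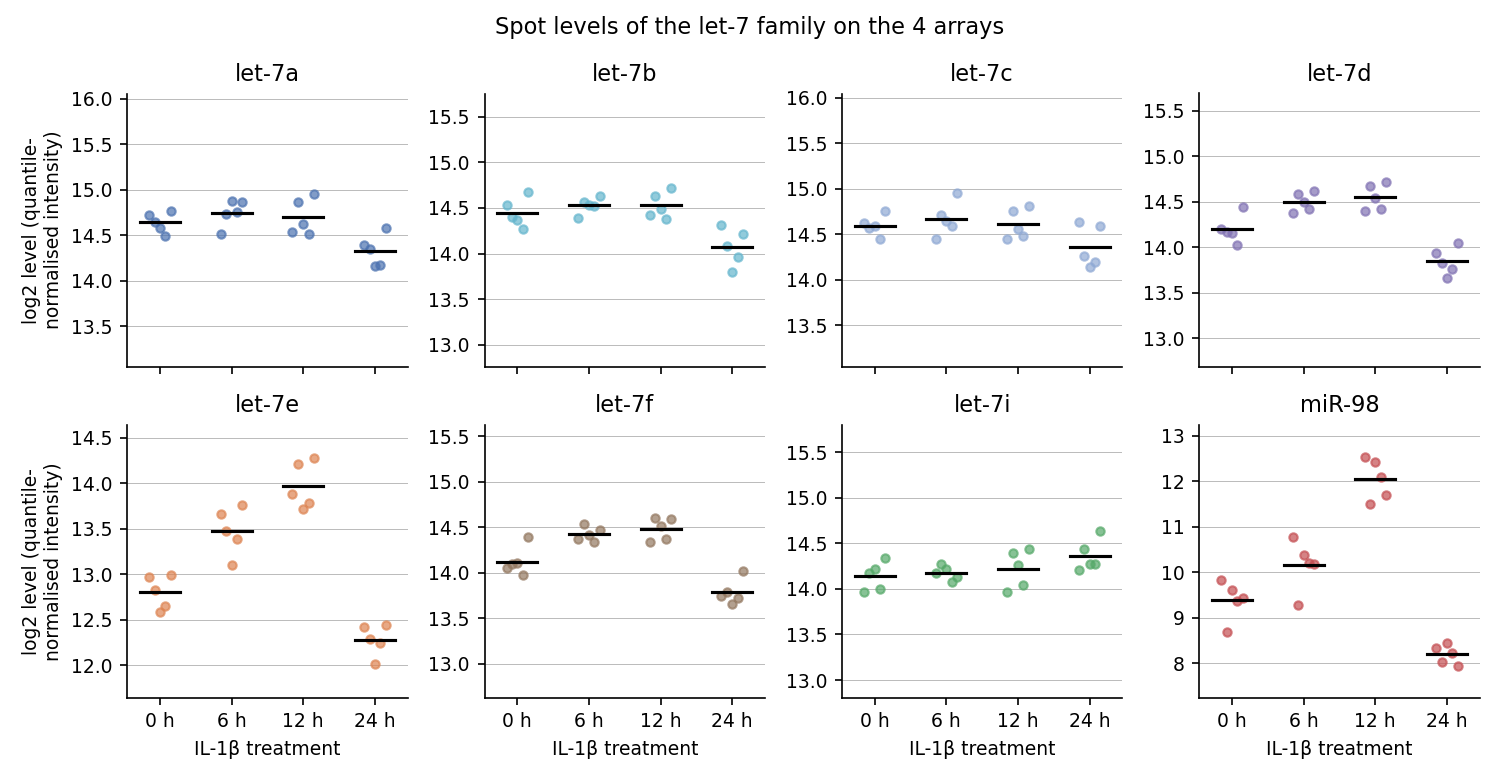
Level of each of the 8 members on the 4 arrays, as log2 of quantile-normalised intensity (y axis, spanning 3 log2 units in each panel and 6 for miR-98) against hours of IL-1β (x axis). Points are the 5 spots of a probe on 1 array and lines their means. let-7e and miR-98 climb to 12 h and are lowest at 24 h, whereas let-7i is highest at 24 h.

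let-7a, let-7b and let-7c did not pass the rule in any of the 6 comparisons of 2 arrays. let-7a stood at 14.64 ± 0.11 in the control, 14.75 ± 0.15 at 6 h, 14.70 ± 0.20 at 12 h and 14.33 ± 0.18 at 24 h. Its first 3 levels lay within the spread of the spots, and its change at 24 h was -0.31 ± 0.09, lower in 5 of 5 spots. let-7b stood at 14.45 ± 0.16, 14.53 ± 0.09, 14.53 ± 0.14 and 14.07 ± 0.20, and its spots at 24 h all lay below those at 6 h and at 12 h. let-7c stood at 14.59 ± 0.11, 14.67 ± 0.19, 14.61 ± 0.16 and 14.36 ± 0.23, with overlapping spots on every pair of arrays. From 12 h to 24 h the changes of these 3 were -0.37 ± 0.12, -0.46 ± 0.11 and -0.25 ± 0.13. In the authors' values the 24 h signal of let-7a, let-7b and let-7c was 0.868, 0.850 and 0.906 times that of the control.

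let-7d and let-7f gave nearly the same profile. Both have a gene in the chromosome 17 cluster, as does let-7a, whose changes at 6 h and 12 h were 0.10 and 0.06. The probes of let-7a and let-7f also read another locus each. let-7d stood at 14.20 ± 0.15 in the control, 14.50 ± 0.10 at 6 h, 14.55 ± 0.14 at 12 h and 13.85 ± 0.15 at 24 h. let-7f stood at 14.12 ± 0.16, 14.42 ± 0.08, 14.48 ± 0.12 and 13.78 ± 0.14. For both, 6 h and 12 h did not differ beyond the spread of the spots, and the control lay between them and 24 h. let-7d was 0.30 ± 0.08 above the control at 6 h and 0.35 ± 0.09 at 12 h, in 5 of 5 spots each time. let-7f was 0.30 ± 0.08 and 0.36 ± 0.09 above it, also in 5 of 5 spots. From 12 h to 24 h the levels dropped by 0.70 ± 0.09 for let-7d and by 0.70 ± 0.08 for let-7f, with no overlap of spots. These drops were under 2-fold and passed only where a 1.5-fold rule was used.

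let-7e, whose gene lies between those of miR-99b and miR-125a, rose and then fell. Its level was 12.81 ± 0.18 in the control, 13.48 ± 0.26 at 6 h, 13.97 ± 0.25 at 12 h and 12.28 ± 0.17 at 24 h. The spots at 6 h overlapped those at 12 h, and all other pairs of arrays were apart. Against the control, let-7e was at 0.67 ± 0.14 at 6 h, rose 2.25-fold at 12 h (1.17 ± 0.14) and was at -0.53 ± 0.11 at 24 h. Its fall from 12 h to 24 h was 3.23-fold (-1.69 ± 0.14) and that from 6 h to 24 h 2.29-fold (-1.20 ± 0.14). In the latter comparison 7% of 357 miRNAs were called (3.92% higher and 3.08% lower), and the 2 members among them were let-7e and miR-98. The authors' values for let-7e were 7189, 11576, 14934 and 4244 units. The rise at 12 h did not pass after GC correction (0.79) and was 2.06 without normalization. The 2 falls to 24 h passed under every alternative tried, of which the looser call rules and other filters could not remove a call.

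miR-98, which differs from let-7a at positions 11 and 19, rose at 12 h and fell at 24 h. Its level was 9.38 ± 0.43 in the control, 10.16 ± 0.55 at 6 h, 12.04 ± 0.45 at 12 h and 8.20 ± 0.21 at 24 h. The control and 6 h overlapped, and so their order does not go beyond the spread of the spots, although 5 of 5 spot positions were higher at 6 h. The 12 h spots lay above all others, and the 24 h spots below those of the other 3 arrays. The rise at 12 h was 6.32-fold (2.66 ± 0.28), and it was 3.69-fold when set against 6 h (1.88 ± 0.32). Its size depended on the processing, with 1.97 after GC correction and 3.73 without normalization for the former, and 2.74 without normalization for the latter. In the step from 6 h to 12 h 1.41% of 355 miRNAs were called (1.13% higher and 0.282% lower), and miR-98 was the member among them. At 24 h miR-98 was 2.28-fold below the control (-1.19 ± 0.21) and 14.4-fold below 12 h (-3.85 ± 0.22). In the step from 12 h to 24 h, in which let-7e and miR-98 fell, 9.68% of 248 miRNAs were called (4.44% higher and 5.24% lower). The authors' values were 690, 1005, 4556 and 233 units. The fall at 24 h against the control did not pass without normalization between arrays, at -0.71. It passed under the 14 other alternatives, with -1.88 after GC correction. The looser call rules and other filters among these could not have removed that call. Without normalization the fall from 12 h to 24 h was -4.44.

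As deposited, the 5 spots of miR-98 read from 345 to 637 units in the control and from 513 to 1688 at 6 h. They read from 5050 to 8718 units at 12 h and from 245 to 366 at 24 h. Compared position by position, the 5 log2 changes at 12 h ran from 2.27 to 2.80, and those at 24 h from -1.49 to -0.66. The 5 spots therefore moved together although they differed in brightness within an array.

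let-7i, the member farthest in sequence from the rest, took another course. It stood at 14.14 ± 0.15 in the control, 14.17 ± 0.08 at 6 h, 14.22 ± 0.21 at 12 h and 14.37 ± 0.18 at 24 h. Neighbours in this order overlapped, and no change of let-7i passed the rule. At 24 h its change was 0.23 ± 0.10 against the control and 0.14 ± 0.12 against 12 h, higher in 5 of 5 spots in both, while the other 7 members had negative changes in both. The change against the control was positive under 14 of 15 alternatives and -0.14 after GC correction. Alternatives that alter only the filter, the call rule or the spot error keep the levels, so they could not move this change. The authors' values of 18126, 18142, 17946 and 22184 units were also highest at 24 h, but lowest at 12 h.

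**Figure D3:**
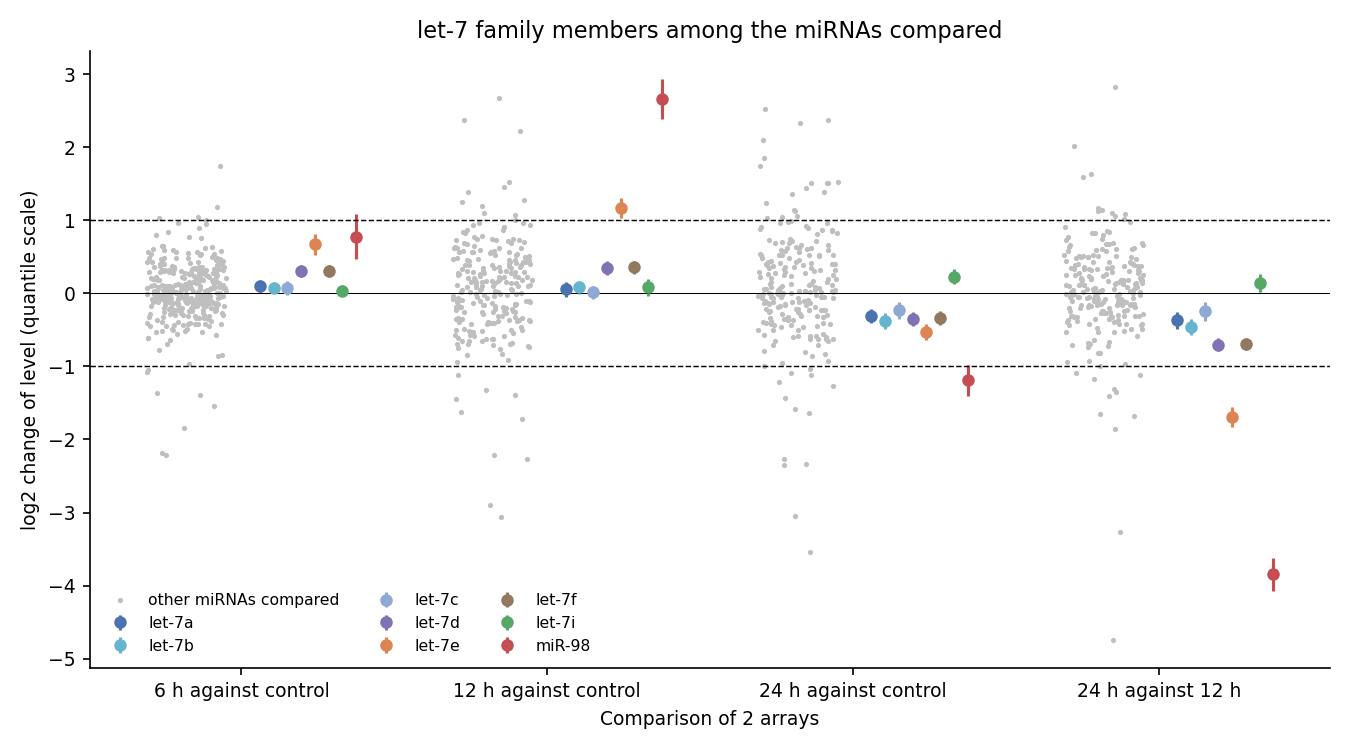
log2 change of level on the quantile scale (y axis) for 4 comparisons of 2 arrays (x axis). Grey points are the other miRNAs compared, coloured points the 8 members with the SE of their spots, and dashed lines mark 2-fold. miR-98 lies at 2.66 at 12 h and at -3.85 from 12 h to 24 h, and let-7i is the one member above 0 in both comparisons of the 24 h array.

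Ratios within an array stay the same when all of its signals are multiplied by a single factor, though not under quantile normalization. Probes bind their targets with different strength, so that a share of signal is not a share of molecules and only its change between arrays is read. Net of the empty spots, the 8 members gave 20.1% of all miRNA signal in the control, 22.2% at 6 h, 21.5% at 12 h and 16.7% at 24 h. In the authors' values the family's part was 18.7%, 21.8%, 21.9% and 16.4%. The 24 h array had the lowest family share by either measure.

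Within the family, the shares of let-7e and miR-98 grew up to 12 h. let-7e gave 4.59% ± 0.49 (SD over 5 spots) of the family signal in the control, 7.45% ± 1.26 at 6 h, 10.3% ± 0.64 at 12 h and 3.76% ± 0.28 at 24 h. miR-98 gave 0.399% ± 0.114, 0.678% ± 0.312, 3.59% ± 1.13 and 0.18% ± 0.049. Both were thus at their highest share at 12 h and at their lowest at 24 h.

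let-7a, let-7b and let-7c gave smaller shares at 12 h than in the control. let-7a went from 19.4% ± 0.83 to 16.2% ± 0.15 at 12 h and 18.0% ± 0.28 at 24 h. let-7c went from 18.6% ± 0.23 to 15.1% ± 0.26 and 18.1% ± 0.62, and let-7b from 16.6% ± 0.63 to 14.5% ± 0.29 and 15.5% ± 1.03. The share of let-7i was 13.3% ± 1.24 in the control, 11.6% ± 0.80 at 6 h, 11.7% ± 0.23 at 12 h and 18.4% ± 1.38 at 24 h. Its 5 spot shares at 24 h ran from 16.2% to 19.8% and lay above those of the other 3 arrays, of which the highest was 14.5%. let-7d and let-7f stayed between 12.8% and 15.5% on all 4 arrays.

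**Figure D4:**
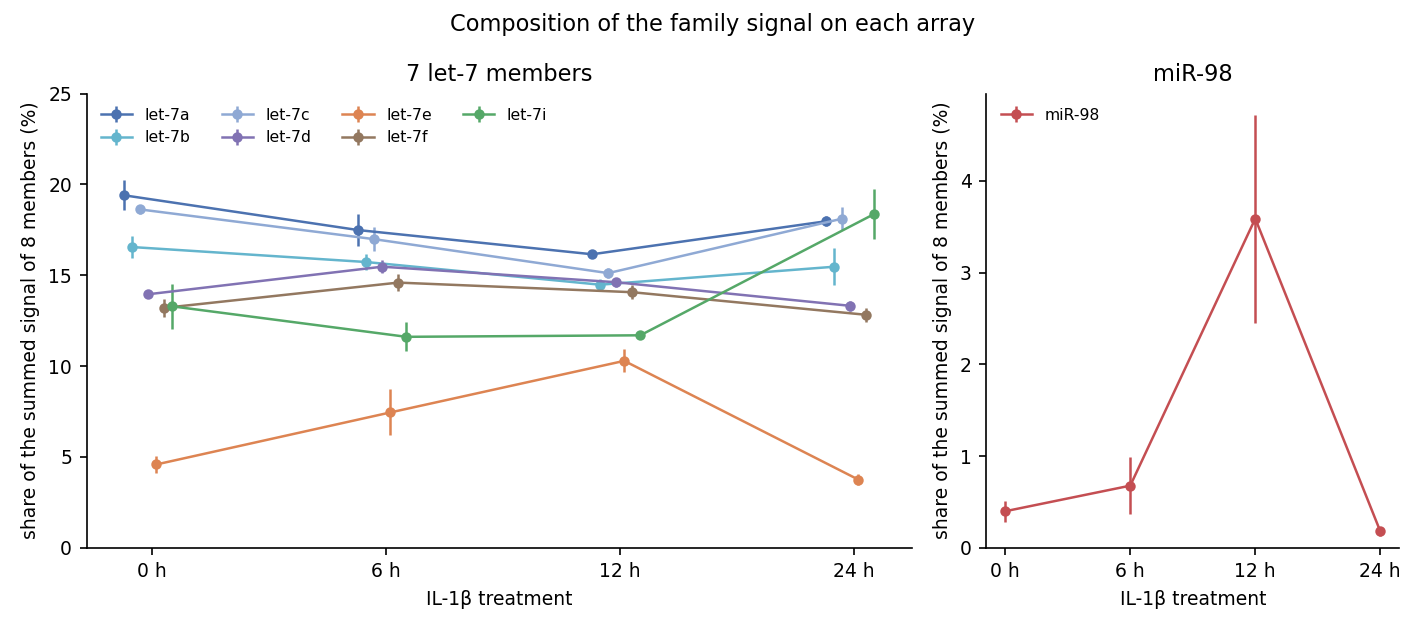
Share of each member in the summed signal of the 8 members, in percent (y axis), against hours of IL-1β (x axis), with the 7 let-7 members on the left and miR-98 on its own scale on the right. Points are shares from the means of 5 spots and bars the SD over the spots. let-7e reaches 10.3% and miR-98 3.59% at 12 h, and let-7i rises to 18.4% at 24 h.

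Each member's signal was also taken in percent of that of let-7a on the same array. let-7e gave 23.6% of the let-7a signal in the control, 42.6% at 6 h, 63.7% at 12 h and 20.9% at 24 h. For miR-98 the ratio was 2.06%, 3.88%, 22.2% and 1.0%. let-7d went through 71.9%, 88.5%, 90.5% and 74.1%, and let-7f through 68.1%, 83.5%, 87.1% and 71.4%. let-7b (between 85.3% and 89.9%) and let-7c (between 93.6% and 101%) kept nearly the same ratio. let-7i went the other way, with 68.5% ± 8.75 in the control, 66.4% ± 6.25 at 6 h, 72.4% ± 1.57 at 12 h and 102% ± 6.97 at 24 h.

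Control probes whose names mark them as mismatched forms of a matched control probe were set beside these ratios. Of 27 such pairs, 10 had both probes over the detection limit on every array, and in these the mismatched probe gave a median of 2.23% of the matched signal in the control, 3.22% at 6 h, 23.3% at 12 h and 1.96% at 24 h. The value at 12 h was above that in the control and at 6 h in 10 of 10 pairs and above that at 24 h in 9 of 10. The size of the rise from the control to 12 h differed between pairs. It went from 66.8% to 80.3% for PUC2MM and from 10.7% to 22.3% for Ctr03-3M05. For Ctr07-3M05 and Ctr07-3M10, which share 1 matched probe, it went from 1.01% to 24.4% and from 0.885% to 29.3%. Different pairs lay in the middle on different arrays, so the median is not the course of any 1 pair. The order of 24 h, control, 6 h and 12 h from lowest to highest, which the medians and the let-7e and miR-98 ratios all had, was found in 3 of the 10 single pairs. The 10 pairs rest on 8 matched probes, their values on all arrays ran from 0.0502% to 94.8%, and the other 17 pairs had a probe at or below the limit on at least 1 array. The part of signal from nearly identical family members in the let-7e, miR-98, let-7d and let-7f readings was not tested.

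**Figure D5:**
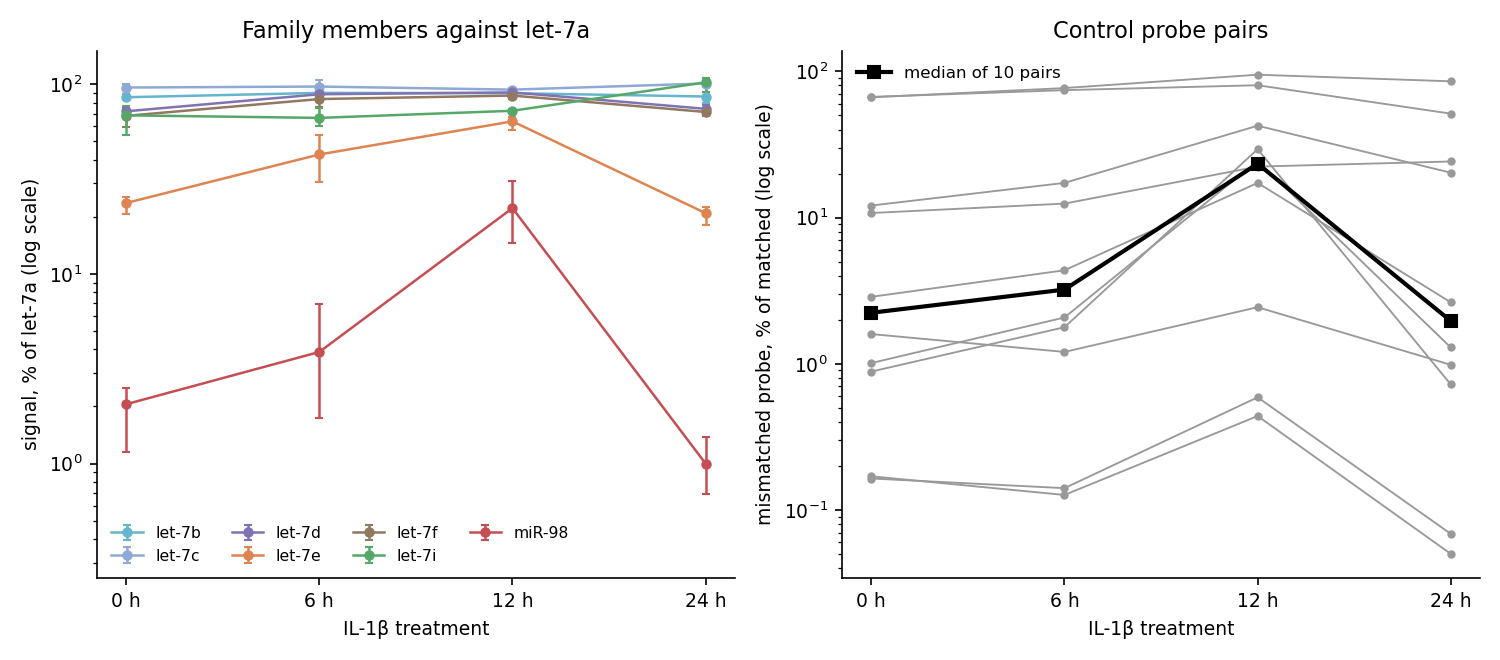
Left, signal of 7 members in percent of that of let-7a on the same array (y axis, log scale) against hours of IL-1β, with bars from the lowest to the highest of 5 spots. Right, signal of 10 mismatched control probes in percent of their matched probes (y axis, log scale), each pair in grey and the median in black. let-7e, miR-98 and the median of the control pairs, at 63.7%, 22.2% and 23.3%, are all highest at 12 h.

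The distance to related members was set beside the excess of the 12 h level over the average of its 2 neighbours in time. This excess was 2.87 for miR-98, which is 2 edits from let-7a and let-7c, and 1.09 for let-7e, which is 1 edit from let-7a. It was 0.37 for let-7d and 0.38 for let-7f, which are 2 and 1 edits from let-7a. let-7b, which is 1 edit from the brighter let-7c, had 0.23. let-7a, let-7c and let-7i had 0.16, 0.09 and -0.05. let-7e and let-7f are both 1 edit from let-7a, but gave 23.6% and 68.1% of its signal in the control. A given added signal moves the log2 level of a brighter probe less, so these excesses cannot be compared by edits alone. The part of related members in them was not tested.

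Outside the family, 1 probe lay within 4 edits of a member. miR-352, 2 edits from let-7d and 4 from let-7a, has another seed and is shown for the stretch it shares with let-7d.
let-7d: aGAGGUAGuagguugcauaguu
miR-352: aGAGUAGUagguugcauagua
miR-352 stood at 10.96 ± 0.30 in the control, 11.81 ± 0.20 at 6 h, 12.04 ± 0.21 at 12 h and 10.73 ± 0.19 at 24 h. It rose 2.11-fold at 12 h (1.08 ± 0.16) and fell 2.48-fold from 12 h to 24 h (-1.31 ± 0.13).

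The likeness of profiles was measured as the root mean square difference of the log2 changes from the control at 6, 12 and 24 h, over 155 other miRNAs detected on all 4 arrays. Since all 3 changes share 1 control array, this is a description. The nearest to let-7e was miR-352, at 0.20, followed by miR-196a (0.29), miR-26b (0.31), miR-10b (0.33) and miR-196c* (0.34). The nearest to miR-98 was again miR-352, but at 1.07, followed by miR-466d (1.13), miR-10b (1.2), miR-329 (1.2) and miR-466b (1.21). No other miRNA thus came within 1 log2 unit of the miR-98 profile. The median profile of the other 6 members (0.09, 0.08 and -0.33) was closest to those of miR-322* (0.05), miR-346 (0.06), miR-466b-2* (0.10), miR-361 (0.11) and miR-132 (0.13).

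The opposite arms of the let-7 hairpins, the star strands, are usually degraded after processing. Of 10 star probes, let-7d* was the one detected on all 4 arrays. It stood at 9.68 ± 0.29 in the control, 9.54 ± 0.23 at 6 h, 9.58 ± 0.22 at 12 h and 9.31 ± 0.25 at 24 h. Its changes from the control were -0.14 ± 0.16, -0.10 ± 0.16 and -0.37 ± 0.17, where those of let-7d were 0.30, 0.35 and -0.35. At 6 h and 12 h the arms thus differed in sign, though the star strand's changes were within their error. let-7a-1* had 0 of 5 spots above the limit in the control, 5 at 6 h, 3 at 12 h and 3 at 24 h, and since the limit differed between arrays no change is given. None of the star strands compared (7 at 6 h, 3 at 12 h and 3 at 24 h) passed the rule, against 3.66%, 9.64% and 13.7% of all miRNAs compared. let-7c-1*, let-7f-2* and miR-98* were not detected on any array.

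Several let-7 genes lie in clusters with members of the miR-99/100 and miR-125 families. None of these 5 partners passed the rule in any of the 6 comparisons, in which between 1.41% and 13.7% of all miRNAs compared were called. With so few partners nothing particular to them is read from this. miR-125a-5p, whose gene follows that of let-7e on chromosome 1, was at 0.48 ± 0.09, 0.36 ± 0.09 and -0.33 ± 0.10 at 6, 12 and 24 h. miR-99b, which precedes let-7e there, was at -0.06 ± 0.11, -0.40 ± 0.09 and 0.03 ± 0.07. The changes of let-7e at these times were 0.67, 1.17 and -0.53, and those of miR-99b at 6 h and 24 h were within their SE. miR-100, on chromosome 8 near a let-7a gene, was at 0.62 ± 0.12, 0.53 ± 0.14 and 0.24 ± 0.11. miR-99a, near a let-7c gene on chromosome 11, was at 0.19 ± 0.12, 0.16 ± 0.12 and 0.02 ± 0.11. miR-125b-5p was at -0.01 ± 0.06, -0.17 ± 0.05 and -0.16 ± 0.05. These partners carry other seeds and share no near-identical sequence with the members: none lay within 4 edits of one.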

How the data were processed

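The deposited spot files give the mean intensity of 3968 spots per array, on a linear scale. Per the labels, small RNAs were separated by filtration, given a poly(A) tail and a ligated tag, and stained with Cy5. The scanner and image software are not given in the sources used here. The authors' deposited value table holds 1 linear intensity per miRNA; its low minimum and like medians (24.3, 22.5, 23.4 and 20.3 units) are those of background-corrected, scaled values, by a method not given there. Commas that group the digits of large values were removed.

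Spots were corrected with normexp (limma 3.58.1, R 4.3.3, offset 50), put on the log2 scale, quantile-normalised over the miRNA spots and averaged over 5 spots. Shares and ratios used spot means minus the median of the empty spots. Further steps used Python 3.11.15, numpy 2.4.6, pandas 2.3.3 and matplotlib 3.10.9. With 1 array per group, no p-value was computed, and the number of arrays limits the precision. Alternatives covered background, normalization, filters, spot summaries, call rules and GC content. All 8 members were named, with their star strands, cluster partners, probes within 4 edits and the 5 nearest profiles. Members, lists and rules were chosen with earlier results of these data known.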

Additional observations from a re-analysis of the deposited data

Results flagged for a closer look

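miR-3596a, whose target is the exact reverse complement of let-7a, is named here with its values already known. It was not among the members, star strands or partners described above, though it counted among all miRNAs compared at 6 h and 24 h. Its normalised level at 24 h was above that of the control. It had 1 of 5 spots above the empty-spot limit in the control, 4 at 6 h, 2 at 12 h and 5 at 24 h, and its log2 changes on the quantile scale were -0.10 ± 0.15, -0.14 ± 0.13 and 0.53 ± 0.12 at 6, 12 and 24 h. With the control at background, the last of these is no measured change, and the mean of the spots as deposited was lower at 24 h (125.9 units) than in the control (131.2 units). The median of the empty spots was lower too, at 64.97 units against 122.55. Net of that median, the probe stood at 60.9 units at 24 h and 8.61 in the control. Its sequence is shown for the complementarity to let-7a.
let-7a: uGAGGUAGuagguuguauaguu
miR-3596a: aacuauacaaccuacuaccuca
Its log2 level was 6.65 ± 0.22 in the control and 7.18 ± 0.17 at 24 h, and the limit itself differed between these arrays.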

How the results depend on the processing

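The number of members called stayed within 1.5 times the main number in 79 of 87 recomputed counts. These include counts under other detection filters, which could not change because all members were detected on all arrays. At 6 h, where none passed, 1 did (let-7e) after median scaling and without normalization, and 2 (let-7e and miR-98) with a 1.5-fold rule. At 12 h GC correction left 1 of 2, miR-98. At 24 h against the control 0 passed without normalization, and 2 (let-7f and miR-98) after GC correction. A 1.5-fold rule gave 4 members at 24 h against 12 h and 4 against 6 h, adding let-7d and let-7f. Over all miRNAs that rule called 34 higher and 28 lower of 248 at 24 h against 12 h. It called 42 and 32 of 357 at 24 h against 6 h, and 21 and 16 of 355 at 6 h against the control. GC correction gave 9 higher and 10 lower calls of 249 at 12 h, and 12 and 13 of 233 at 24 h, against the control. No called change of a member reversed its sign. The family's part of all miRNA signal moved beyond the spot spread in 4 of 16 recomputed values: to 17.5% in the control without background subtraction, and on the quantile scale to 17.9% (control), 20.2% (6 h) and 15.0% (24 h). Over all miRNAs the count of calls ranged from 9 to 82 at 6 h (13 as reported), 19 to 98 at 12 h (24), 18 to 92 at 24 h (32), 4 to 30 from 6 h to 12 h (5), 20 to 64 from 12 h to 24 h (24) and 23 to 90 from 6 h to 24 h (25). Median scaling moved the median change of all miRNAs to -0.40, -0.37 and -0.19 at 6, 12 and 24 h, and no normalization to -0.32, 0.40 and 0.30. Taken relative to these, the members' median was 0.93, 0.45 and -0.01 under both. Higher and lower calls over all miRNAs, 5 and 8, 14 and 10, and 19 and 13 as reported, were 9 and 19, 14 and 32, and 13 and 38 after median scaling. They were 14 and 11, 52 and 6, and 34 and 18 without normalization. The cause of these differences was not tested. Pairing the spots by position, chosen after seeing the data, changed no call. No paired analysis was possible because each group holds 1 sample. The control array's higher empty-spot signal limits what dim probes such as the star strands can show.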
